A study of Mus musculus with 12 samples.

Results

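Acetylation of histone H3 at lysine 27 (H3K27ac) was compared between trichostatin A (TSA) and vehicle in fibro-adipogenic progenitors (FAPs) of young dystrophic mice. The members are all H3K27ac peaks of the 2 libraries, chosen by library label and not by any measured value: 5945 peaks with TSA and 7891 peaks with vehicle, out of 77135 peaks read in the 8 immunoprecipitated libraries of the series. Merging overlapping or touching peaks of both libraries gave 7887 regions. The TSA library came from C57Bl6 mdx mice of 1.5 months that received TSA at 0.6 mg/kg/day in saline, by daily injection into the peritoneum over 15 days. The vehicle library came from mdx mice of the same age given saline alone for the same time. All mice of the series carried the mdx mutation, which removes dystrophin, so no group has healthy muscle. The cells were sorted from muscle by flow cytometry, and no source used here gives the gate, the sex or the number of animals behind a library. Each group has 1 library, so all differences below are differences between 2 libraries, with errors from tag counting alone and no test between groups. Less mark per cell and fewer marked cells in the sorted population cannot be told apart.

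H3K27ac is laid down by the acetyltransferases p300 and CBP and marks active promoters and active enhancers, whereas promoters and enhancers without it are mostly silent or poised. TSA blocks the zinc-dependent histone deacetylases that remove such marks, and inhibitors of this class have been studied in mdx mice because they shift FAPs away from a fat-forming and scar-forming fate. FAPs are the mesenchymal cells between muscle fibres, and they supply growth signals and matrix after injury and become fibroblasts and adipocytes in diseased muscle.

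The lists compared here cover chromosome 1, chromosome 2 and chromosome 3 up to position 122275556 (build GRCm38), which holds 18.1% of the peaks counted in the header of the TSA list and 18.3% of those in the vehicle list. Peaks in this stretch held 1376021 tags with TSA and 1659160 tags with vehicle. No source used here gives the depth of either library outside its peaks. FAP markers carried the mark in both libraries: 8 of 9 FAP identity genes in the stretch had a peak within 10 kb, all but Sfrp2. For comparison, 2347 of all 3788 protein-coding genes in the stretch had a peak within 10 kb in either library. These counts therefore do not by themselves identify the cells. Genes of other cells were mixed: a peak lay within 10 kb of 15 of 32 macrophage and lymphocyte genes, 8 of 21 muscle fibre and stem cell genes and 12 of 15 endothelial genes. The macrophage and lymphocyte genes Ptprc, Spi1, Cd48 and Cd53 and the fibre genes Ttn, Neb and Myl1 had no peak in either library, whereas the macrophage and lymphocyte genes Sirpa, Cd247, Cd2 and Fcgr3, the endothelial genes Egfl7, Eng, Sox17 and Sox18 and the muscle genes Casq1, Chrng and Tnnc2 had peaks in both.

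The promoters below are examples of starts whose peaks differed between the libraries, chosen after their values were seen, each given as the 250 bases before the listed start of transcription (RefSeq, GRCm38.p6), with every CG dinucleotide in capitals. Regions over the first 3 starts held more tags with TSA. They are Nes on chr3:87970843-87971092 (plus strand), Sema6c on chr3:95160170-95160419 (plus strand) and Tlr2 on chr3:83841609-83841858 (minus strand).
Nes: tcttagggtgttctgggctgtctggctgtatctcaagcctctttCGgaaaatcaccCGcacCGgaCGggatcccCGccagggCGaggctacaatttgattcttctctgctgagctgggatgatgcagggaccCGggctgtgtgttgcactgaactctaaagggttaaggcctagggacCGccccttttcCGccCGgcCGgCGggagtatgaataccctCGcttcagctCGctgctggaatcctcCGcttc
Sema6c: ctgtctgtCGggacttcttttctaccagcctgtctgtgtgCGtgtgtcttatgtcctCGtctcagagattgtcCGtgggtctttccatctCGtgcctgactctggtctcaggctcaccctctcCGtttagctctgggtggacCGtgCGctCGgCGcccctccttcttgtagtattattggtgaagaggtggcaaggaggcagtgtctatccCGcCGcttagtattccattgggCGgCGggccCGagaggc
Tlr2: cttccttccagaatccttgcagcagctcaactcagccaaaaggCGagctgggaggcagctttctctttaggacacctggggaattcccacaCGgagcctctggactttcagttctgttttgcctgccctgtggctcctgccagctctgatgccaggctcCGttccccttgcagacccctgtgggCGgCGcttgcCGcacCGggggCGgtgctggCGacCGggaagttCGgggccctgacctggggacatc
The start of Cpxm1, on chr2:130397630-130397879 (minus strand), had a peak within 1000 bp with TSA only.
Cpxm1: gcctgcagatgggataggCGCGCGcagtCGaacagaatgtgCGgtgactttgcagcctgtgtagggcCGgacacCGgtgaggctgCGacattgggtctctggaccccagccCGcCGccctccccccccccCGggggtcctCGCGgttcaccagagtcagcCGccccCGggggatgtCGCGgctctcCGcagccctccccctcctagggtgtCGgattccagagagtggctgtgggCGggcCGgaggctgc
The next starts had a peak within 1000 bp with vehicle only. They are Tfpi on chr2:84476760-84477009 (minus strand), Fbln7 on chr2:128863682-128863931 (plus strand) and Hmcn1 on chr1:150993436-150993685 (minus strand). The Hmcn1 peak, at 150992782 to 150993268, does not reach the printed bases.
Tfpi: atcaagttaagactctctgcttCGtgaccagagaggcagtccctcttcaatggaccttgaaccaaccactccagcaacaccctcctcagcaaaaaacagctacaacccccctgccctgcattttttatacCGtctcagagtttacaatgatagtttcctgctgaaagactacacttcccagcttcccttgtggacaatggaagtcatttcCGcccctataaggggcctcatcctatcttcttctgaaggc
Fbln7: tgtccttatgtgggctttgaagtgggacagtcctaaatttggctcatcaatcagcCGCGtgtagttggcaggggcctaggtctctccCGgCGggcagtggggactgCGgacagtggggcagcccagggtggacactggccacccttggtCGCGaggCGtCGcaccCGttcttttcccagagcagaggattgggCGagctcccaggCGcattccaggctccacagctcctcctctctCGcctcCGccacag
Hmcn1: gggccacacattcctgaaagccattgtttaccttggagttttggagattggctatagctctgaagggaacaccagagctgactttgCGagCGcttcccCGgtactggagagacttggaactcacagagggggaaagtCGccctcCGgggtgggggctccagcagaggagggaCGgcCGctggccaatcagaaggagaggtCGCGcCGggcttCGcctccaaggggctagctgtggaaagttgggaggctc
The Cpxm1 promoter holds 21 CG dinucleotides and the Tfpi promoter 3, the extremes of the 7 sequences shown.

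The microRNA loci described later are represented by mature sequences (RefSeq, GRCm38.p6) with the seed, bases 2 to 8, in capitals. They were chosen after their values were seen. The miR-30a hairpin lies on chr1:23272269-23272339, miR-199a-2 on chr1:162217814-162217923, miR-214 on chr1:162223368-162223477 and miR-126a on chr2:26591357-26591429, all on the plus strand.
miR-30a-5p: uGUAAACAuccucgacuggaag
miR-199a-5p: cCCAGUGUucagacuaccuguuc
miR-199a-3p: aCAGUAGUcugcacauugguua
miR-214-3p: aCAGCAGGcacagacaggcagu
miR-126a-3p: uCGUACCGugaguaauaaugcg
No 2 of these share a seed.

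The TSA library carried less H3K27ac territory than the vehicle library, and what it carried was almost wholly inside the vehicle territory. Peaks covered 5.99 Mb with TSA and 8.05 Mb with vehicle. Of the 7887 regions, 373 held a TSA peak only, 2572 held a vehicle peak only and 4942 were shared. A vehicle peak overlapped 93.7% of TSA peaks (95% exact binomial interval 93.1 to 94.3), whereas a TSA peak overlapped 67.4% of vehicle peaks (66.4 to 68.4). On each chromosome the order was the same: chromosome 1 had 2.00 Mb covered with TSA against 2.76 Mb with vehicle, chromosome 2 had 2.60 against 3.41 Mb, and the used part of chromosome 3 had 1.39 against 1.87 Mb.

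Peaks found in 1 library alone were mostly weak. Regions of the TSA library alone had a median of 52 tags and 348 bp, and regions of the vehicle library alone had a median of 57 tags and 409.5 bp, against medians of 174 tags with TSA and 200 tags with vehicle in shared regions. Among TSA peaks with under 50 tags, 71.8% had a vehicle partner, and this share was 88.6% at 50 to under 100 tags, 98.6% at 100 to under 200, 100% at 200 to under 400 and 100% at 400 or more. The corresponding shares of vehicle peaks with a TSA partner were 21.5%, 45.9%, 82.4%, 98.5% and 99.9%. At like tag counts below 400, a vehicle peak was therefore without a partner more often than a TSA peak was. TSA peaks were on the whole denser, with 230 tags per kb of peak against 206 tags per kb with vehicle, and the tag shift in the file headers was 111 bp for TSA and 105 bp for vehicle. The part of depth and of the peak-calling threshold in the difference was not tested.

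Of the 0.422 Mb covered with TSA and not with vehicle, 34.9% lay in regions of the TSA library alone, 55.9% in edges of shared regions beyond the vehicle peak and 9.22% in gaps between vehicle peaks. The 2.48 Mb covered with vehicle and not with TSA came mainly from whole regions (50.1%) and from edges of shared regions (46.2%), with 3.73% in gaps. Among the 4109 shared regions made of 1 peak from each library, the TSA peak was narrower in 3112 (75.7%), with a median width ratio of 0.888 (TSA over vehicle). In 478 regions 1 vehicle peak faced 2 or more TSA peaks, and in 274 regions 1 TSA peak faced 2 or more vehicle peaks.

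**Figure D1:**
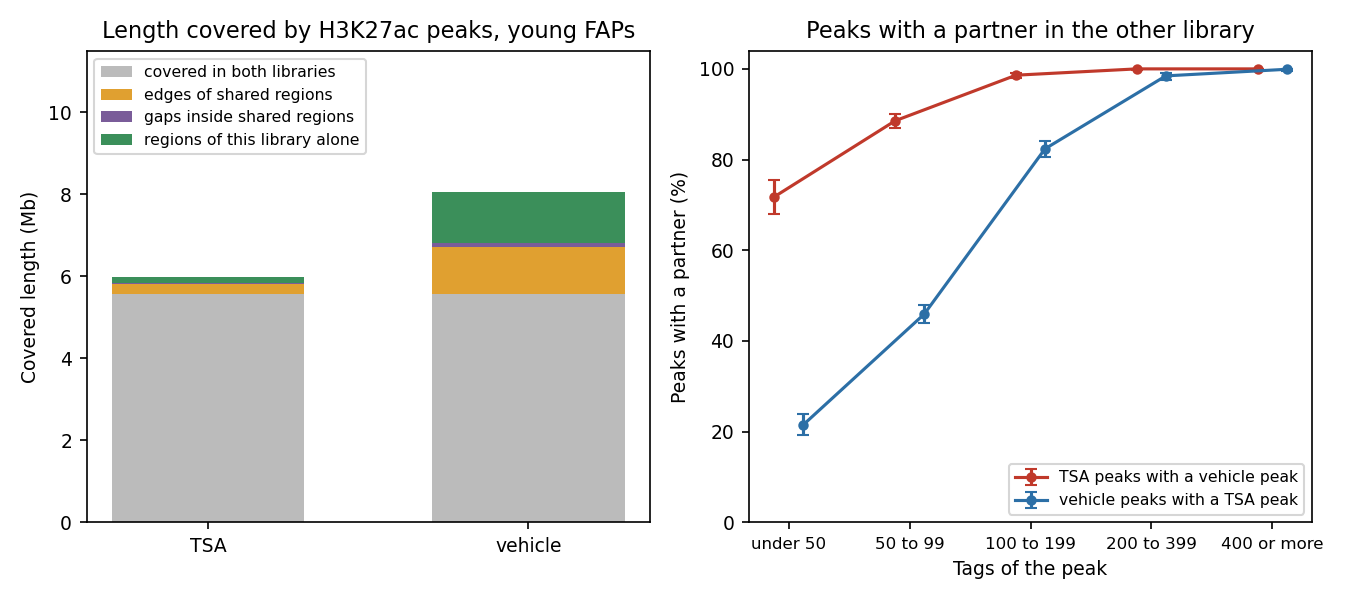
Left, length covered by H3K27ac peaks (Mb) with TSA and with vehicle, split into bases covered in both libraries, edges and gaps of shared regions, and regions of that library alone. Right, percentage of peaks with an overlapping peak in the other library by tags of the peak, with 95% exact binomial intervals. The TSA bar reaches 5.99 Mb and the vehicle bar 8.05 Mb, and the TSA points start at 71.8% where the vehicle points start at 21.5%.

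The strongest acetylated domains were nearly alike in the 2 libraries. The region over the start of Mef2d, which encodes a MADS-box transcription factor, had 3475 tags with TSA and 3393 with vehicle. That of Cry2, a circadian repressor, had 2983 tags with TSA and 3212 with vehicle, and was also the longest, with 12746 bp covered with TSA and 13140 bp with vehicle. Mcl1, a survival protein of the BCL2 family, had 2786 tags with TSA and 3067 with vehicle, and Txnip, a thioredoxin inhibitor, had 2549 and 2788 tags in the same order. Col6a3, a type VI collagen chain, had 2330 tags with TSA and 2807 with vehicle. For comparison between regions, each log2 ratio of tags, TSA over vehicle, was centred by subtracting its median over the 4942 shared regions, -0.13. On this scale these 5 regions lay between -0.14 (Col6a3) and 0.17 (Mef2d), with counting errors of 0.03 to 0.04.

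No TSA-only peak reached 200 tags, whereas 22 vehicle-only peaks did. Of these 22, 19 overlapped a gene away from a listed start, beside 62.9% of all vehicle-only regions. The TSA-only peaks with most tags held 149 tags (37.5 kb from Cops8), 146 tags inside Frmd4a, which encodes a scaffold protein, 142 tags inside Tns1, the focal adhesion gene of tensin 1, and 132 tags (22.2 kb from Dapl1). The highest vehicle-only peak stood inside Rrbp1, a ribosome-binding protein of the endoplasmic reticulum, with 420 vehicle tags over 2989 bp (chromosome 2, 144004488 to 144007476) and no TSA peak. TSA peaks within 10% of that width held 361 tags or more. Others lay inside Asxl1, a Polycomb-associated chromatin regulator (279 tags), Ifih1, the sensor of viral double-stranded RNA MDA5 (259 tags), Slc30a7, a zinc transporter (253 tags), Stau1, an RNA-transport protein (252 and 212 tags), Dis3l2, an exonuclease (237 tags), Celf1, a splicing regulator (236 tags), and Itpkb, an inositol kinase (235 and 220 tags). The gene of lubricin, Prg4, had a vehicle-only peak of 226 tags, and the collagen gene Col5a2 had 2, of 221 and 202 tags. The Prg4 peak crosses the upper end of that gene, which has no listed start, so it counts here as inside.

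Most shared regions differed little in tags. The centred log2 ratio had an SD of 0.43 across regions and lay between -0.86 and 0.52 for the middle 90% of them, against a median counting error of 0.15. A region was taken as changed where the centred ratio passed 1 on the log2 scale (2-fold) and its 95% counting interval excluded 0. By this rule 178 of 4942 regions (3.6%) were lower with TSA and 38 (0.769%) were higher. The balance depended on the scaling: 2.41% were lower and 1.27% higher when scaled by all tags in peaks, and 4.41% were lower and 0.546% higher when centred on start-site regions. The nearest regions inside and outside the threshold were alike: on the higher side a region near Atf3 at 1.02 counted and one near Ada at 0.9988 did not, and on the lower side a region near Fbn1 at -1.001 counted and one near Nav1 at -0.9995 did not.

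Tag changes went with the width of the called peaks. The 178 lower regions had a median of 56.5 tags with TSA against 164 with vehicle, and a median width ratio of 0.313. Per bp of peak their median centred ratio was 0.18, and 41 of 178 kept the negative sign. Each library's tags are divided by its own called width here, so this ratio cannot show whether the mark was thinner over the same bases. The 38 higher regions had a median of 125.5 tags with TSA against 56.5 with vehicle, a width ratio of 2.21 and a median centred ratio per bp of -0.14, and 14 of 38 kept the positive sign. With tags per bp in place of tags, 0% of shared regions passed the rule as lower and 0.0202% as higher. The tag ratios below thus carry the called width of each place with them, and the part of the peak caller in that width was not tested.

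**Figure D2:**
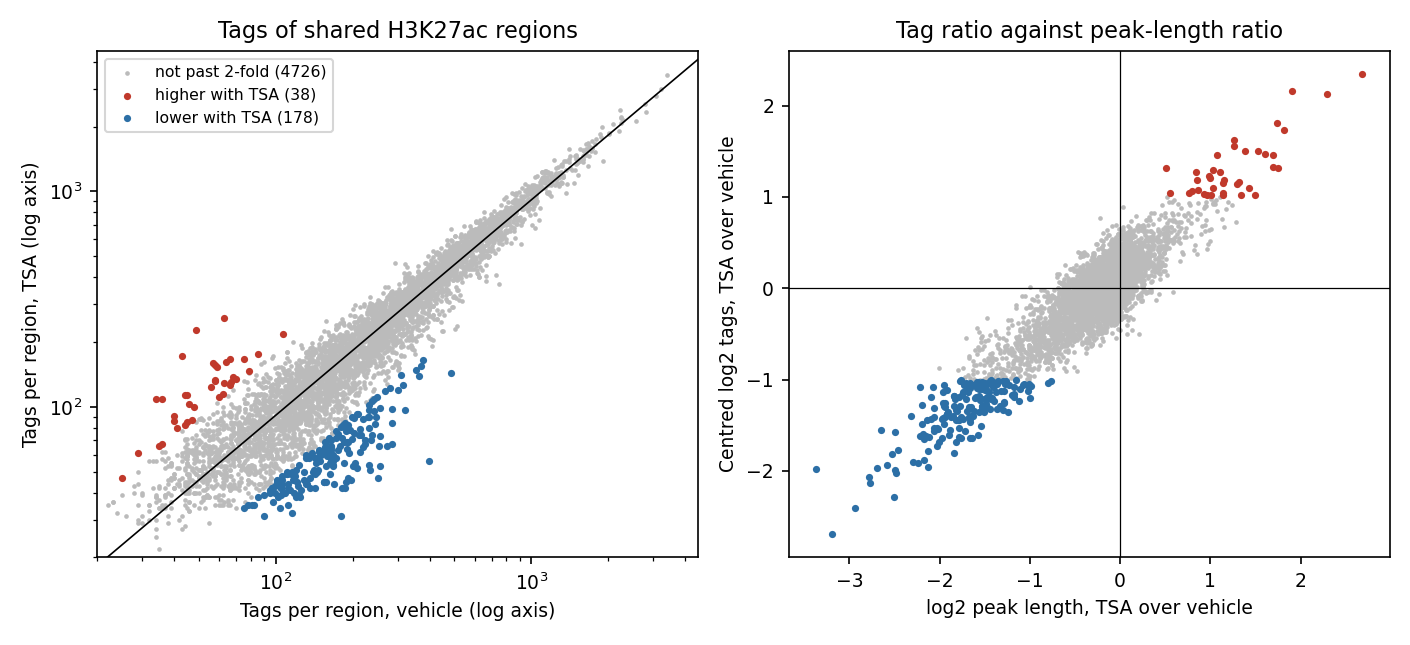
Left, tags per shared region with TSA (vertical) against vehicle (horizontal), both on log axes, with the line at the median ratio. Right, centred log2 tag ratio against the log2 ratio of peak length, TSA over vehicle. Each point is 1 region, red where higher with TSA (38), blue where lower (178) and grey otherwise, and tag ratio and peak length move together.

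Il12a, which encodes the p35 subunit of interleukin 12, led the higher regions: inside the gene (chromosome 3, 68692517 to 68694363), 228 tags lay over 1847 bp with TSA and 49 tags over 287 bp with vehicle, a centred log2 ratio of 2.35 (counting error 0.23). Nes, the gene of the progenitor filament protein nestin whose promoter is shown above, had a start-site region of 258 tags with TSA and 63 with vehicle (2.16, error 0.20). Within 1000 bp of that start the TSA peak covered 1746 of its 1827 bp. The vehicle peak covered 169 of its 488 bp there, so it lay mostly farther from the start. Sema6c, a membrane semaphorin, had 172 tags with TSA and 43 with vehicle (2.13, error 0.25). Tlr2, the receptor for bacterial lipoproteins, had 160 tags with TSA and 57 with vehicle (1.62, error 0.22). Regions over the starts of Fndc11 (153 tags with TSA, 59 with vehicle) and of the RNA-binding protein gene Larp1b (162 and 64 tags, in the same order) followed. Away from starts, regions inside Tspan18, a tetraspanin gene, held 109 tags with TSA and 36 with vehicle, and inside Tns1 156 tags with TSA and 58 with vehicle. The 2 others lay 13.4 kb from Srp9 and 13.2 kb from Rfx8, with 109 and 114 tags with TSA against 34 and 44 tags with vehicle. Start-site regions made up 5 of the 10 highest, beside 36.8% of all shared regions and 39.5% of the 38 higher ones (24.0 to 56.6). The Il12a region, 1093 bp from its listed start, fell just outside the window of 1000 bp.

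The 10 lowest regions all lay away from listed start sites. Inside Lhfp (chromosome 3, 53058476 to 53061107), 56 tags lay over 287 bp with TSA and 397 tags over 2632 bp with vehicle, a centred ratio of -2.70 (error 0.21). Fndc3b, a gene of a membrane protein with fibronectin type III domains, had a region of 47 tags with TSA and 251 with vehicle (-2.29, error 0.23). Regulators of transcription were among the host genes: Elf2, an ETS factor (53 tags with TSA, 255 with vehicle), Wwtr1, the Hippo pathway co-activator TAZ (42 with TSA, 187 with vehicle), and Nfe2l2, the oxidative stress factor NRF2 (67 with TSA, 285 with vehicle). Plxdc2, a plexin domain protein, held 2 of the 10, with 46 and 54 tags with TSA against 198 and 231 with vehicle. The rest lay in the overlap of Pnkd and Tmbim1 (51 tags with TSA, 234 with vehicle), 36.6 kb from Sucnr1 (31 with TSA, 180 with vehicle) and 293 kb from Acvr2a (42 with TSA, 182 with vehicle). Per bp, 9 of these 10 were above 0 and the Nfe2l2 region was at -0.03.

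Regions lower with TSA lay mostly away from listed start sites. Only 3188 of 3788 genes in the stretch had a listed start, so peaks at other starts could be counted as inside or outside genes. Of the 1818 shared regions within 1000 bp of a listed start, 8 (0.44%) were lower with TSA, against 108 of 1945 (5.55%) inside genes and 62 of 1179 (5.26%) outside genes. Higher regions were spread more evenly, with 0.825%, 0.668% and 0.848% of regions in the same order of places. The median centred ratio was 0.09 at start sites, -0.09 inside genes and -0.08 outside. Start sites held 36.8% of shared regions (35.4 to 38.1), 15.5% of TSA-only regions (12.0 to 19.6) and 5.44% of vehicle-only regions (4.60 to 6.39), and 62.9% of vehicle-only regions lay inside a gene. About as many regions of each library alone lay within 1000 bp of a shared region, 32.7% of TSA-only and 33.7% of vehicle-only ones.

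Coverage was also counted base by base around the starts of 3188 protein-coding genes. Within 2 kb of the start, 19.2% of bases were covered with TSA and 21.4% with vehicle, a ratio of 0.896. That zone was not uniform: in bins of 1000 bp the ratio was 0.927 and 0.952 next to the start. It was 0.714 in the bin centred 1500 bp upstream and 0.764 in the bin centred 1500 bp downstream. From 2 to 10 kb downstream, inside the first part of the gene or just beyond a short one, 2.81% were covered with TSA and 3.79% with vehicle, a ratio of 0.741, the lowest of 5 zones. From 2 to 10 kb upstream the ratio was 0.816, and farther away it was 0.813 upstream and 0.796 downstream, up to 50 kb.

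**Figure D3:**
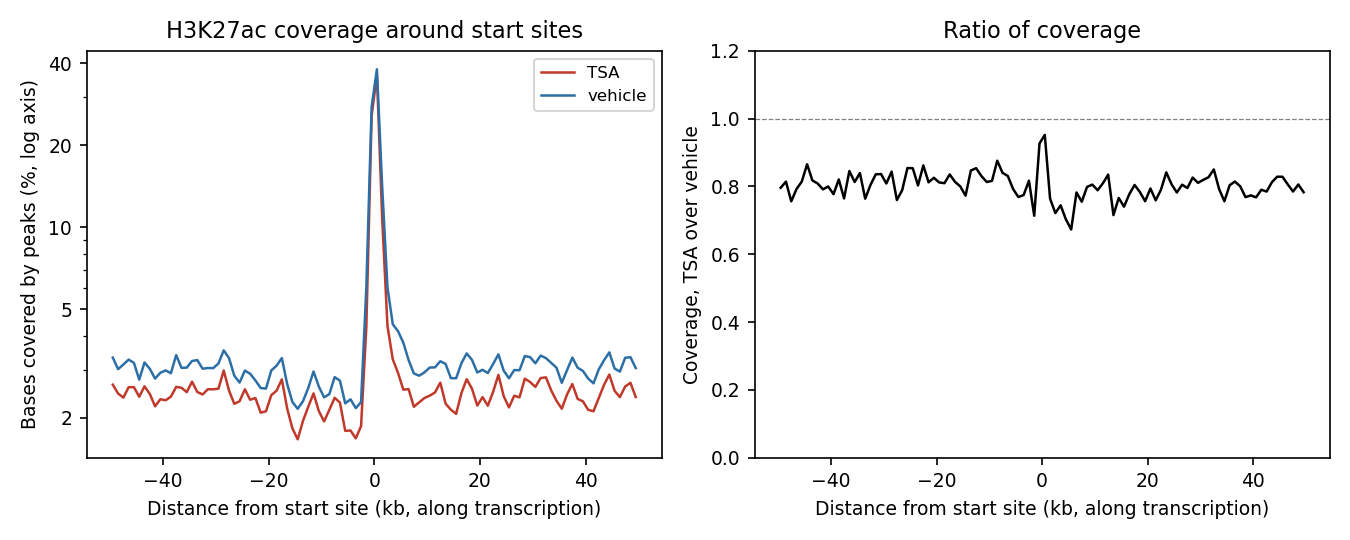
Left, percentage of bases covered by H3K27ac peaks (log axis) against distance from the start site in kb along the direction of transcription, over 3188 genes, with TSA (red) and vehicle (blue). Right, the ratio of the 2 coverages, TSA over vehicle. The ratio peaks at the start, and its lowest bin, centred 5500 bp downstream, is at 0.673. It is also low, at 0.714, in the bin centred 1500 bp upstream. Pooled over 2 to 10 kb downstream the ratio is 0.741.

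Few start sites had a peak within 1000 bp in 1 library and none in the other. Of 3188 genes with a listed start, 1556 had a peak at a start in both libraries, 20 (0.627%) with TSA only, 39 (1.22%) with vehicle only and 1573 in neither. With TSA only, Tcp11l1 had 107 tags, Cpxm1, a secreted carboxypeptidase-like protein, 78 tags, Camk1d, a calcium-dependent kinase, 76 tags, and Sord, sorbitol dehydrogenase, 73 tags. With vehicle only, Olfr433 had most, 179 tags, followed by Apoa2 with 145. Tfpi, the inhibitor of tissue factor-driven clotting, had 107 tags and Sqor, a mitochondrial sulfide oxidase, 102. Lower in this group, and not picked by rank, were Fbln7, a fibulin of the matrix (82 tags), Hmcn1, the matrix protein hemicentin-1 (58), and Serpine2, a secreted protease inhibitor (42). A start without a TSA peak need not be a gene without one. Over the gene and 10 kb either side, Fbln7 held 337 tags with TSA, Sqor 118 and Serpine2 511.

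The promoters of these groups differed in median base composition, though single promoters overlapped: of the vehicle-only examples printed above, Fbln7 has 63.2% GC and Tfpi 48.4%. In the 250 bases before the start, GC content had a median of 66.8% at the 24 starts marked with TSA only, 54.0% at the 45 starts marked with vehicle only, 60.4% at the 1855 starts marked in both and 49.6% at the 1962 starts marked in neither. The median number of CG dinucleotides was 18.5, 9, 17 and 3 in the same order. The hexamer GGGCGG, the core of the GC box, read on both strands and itself holding a CG, occurred in 70.8% of starts marked with TSA only, 33.3% of those marked with vehicle only, 60.3% of those marked in both and 41.5% of all 3886 starts in the stretch. The letters TATAAA occurred in 4.17%, 6.67% and 4.96% of the first 3 groups against 11.8% of all. Further letter patterns were counted, and GGGCGG was not alone in differing. CCAAT occurred in 29.2% of starts marked with TSA only and 51.1% of those marked with vehicle only. For GGAATG these shares were 4.17% and 22.2%, and for CANNTG they were closer, 58.3% and 64.4%. Since the groups that differ hold 24 and 45 starts, these are descriptions only.

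Tags were also summed over each gene and 10 kb either side. Of 3788 protein-coding genes in the stretch, 2347 had a peak in such a window, and 2218 had tags in both libraries and 100 or more in all. Their median centred ratio was 0.01 with an SD of 0.37, against 0.43 over shared regions, and 47.6% lay below 0. By the same 2-fold rule 41 windows (1.85%) were lower and 14 (0.631%) were higher with TSA. A further 17 genes had peaks with TSA only and 99 with vehicle only. With flanks of 50000 bp, 6 of the 20 named windows kept their call, among them Prg4 (-1.66), Hmcn1 (-1.39) and Il12a (1.25). Windows can hold peaks of neighbouring genes, and the gene table has no exons, so a place inside a gene could not be assigned to an exon or an intron.

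Prg4 (chromosome 1, 150449412 to 150466221), the gene of lubricin, a lubricating glycoprotein of joints and tendon sheaths, had the largest difference. Its window held 60 tags in 1 peak with TSA and 721 tags in 7 peaks with vehicle, a centred ratio of -3.46 (error 0.19). The TSA peak lay 22.6 kb from the lower end of the gene, beyond its other end, so that no TSA peak lay within the gene. Hmcn1, whose promoter is shown above, held 72 tags in 1 peak with TSA and 409 tags in 6 peaks with vehicle (-2.38, error 0.18). Col5a2, which encodes a type V collagen chain, held 778 tags in 3 peaks with TSA and 2488 tags in 18 peaks with vehicle (-1.55, error 0.06). Of those 3 TSA peaks, 1 of 676 tags lay at the upper end of the gene, where vehicle had 1038 tags, and the 2 others faced the same vehicle peak inside the gene. The matrix signalling gene Ccn5 held 48 tags in 1 peak with TSA and 223 tags in 5 peaks with vehicle (-2.09, error 0.23).

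**Figure D4:**
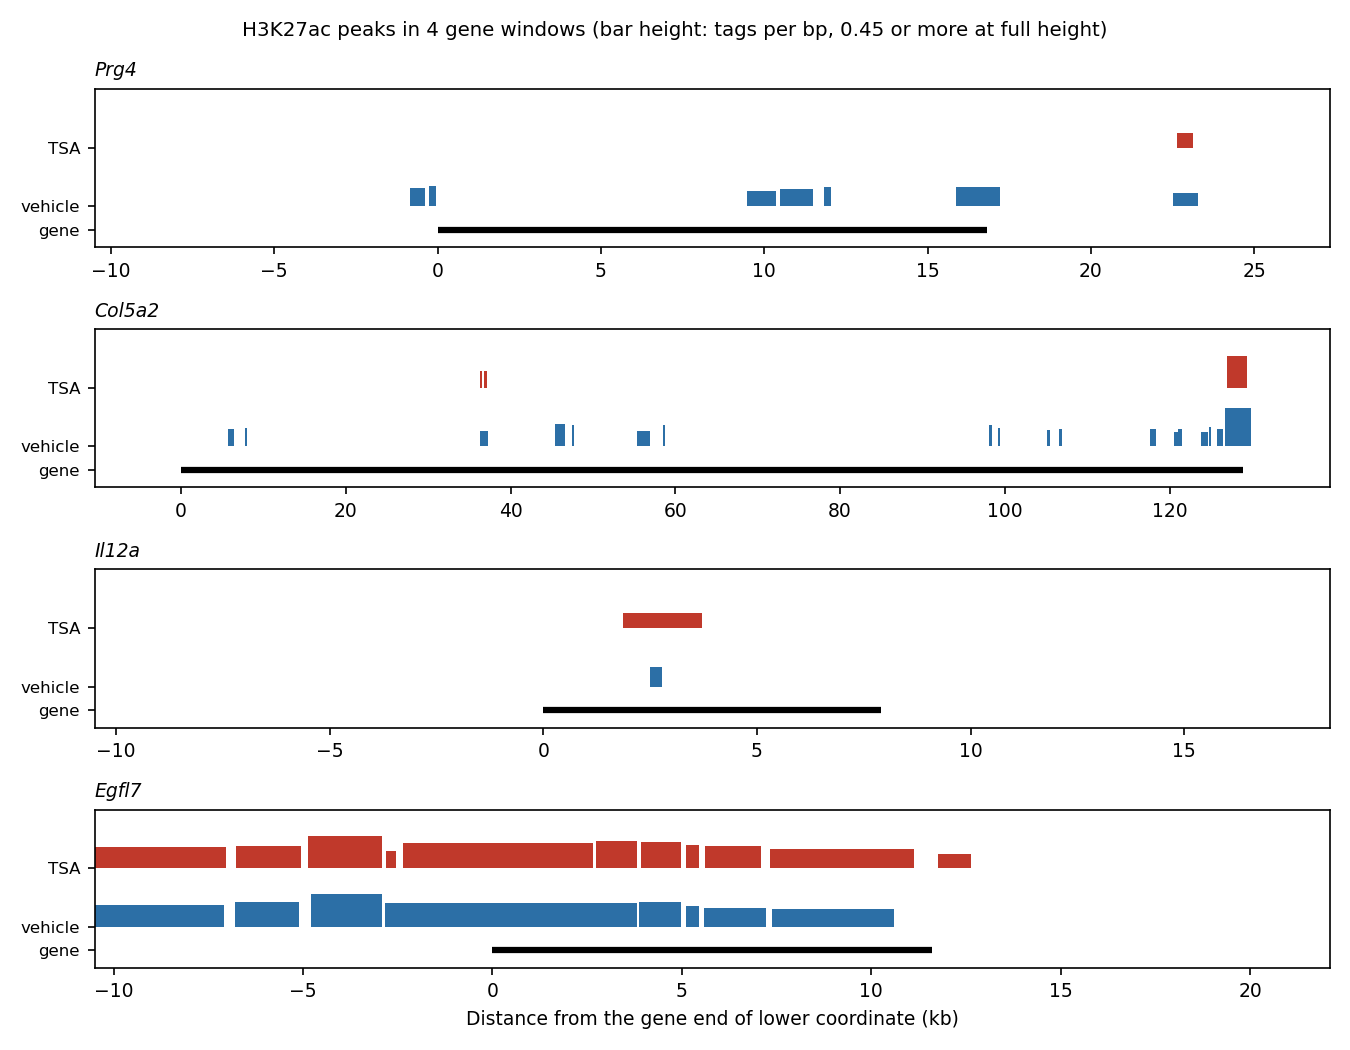
H3K27ac peaks in the windows of Prg4, Col5a2, Il12a and Egfl7, with TSA above vehicle and the gene as a black bar, against distance in kb from the gene end of lower coordinate. Bar height is tags per bp of the peak. Prg4 has 1 TSA peak and 7 vehicle peaks, Col5a2 has 3 and 18, Il12a has 1 wide TSA peak over 1 narrow vehicle peak, and Egfl7 is covered nearly alike.

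The other lowest windows belonged to genes of varied roles. Nceh1, a cholesterol ester hydrolase, held 39 tags with TSA and 267 with vehicle (-2.64, error 0.25), and Bend6, a BEN domain protein, 40 and 233 tags in the same order (-2.41, error 0.25). Aff3, a nuclear protein of the super elongation complex family, held 103 tags with TSA and 498 with vehicle (-2.14, error 0.16). Mgst2, a glutathione transferase, held 35 tags with TSA and 170 with vehicle, and Traf1, an adaptor of tumour necrosis factor receptors, 42 with TSA and 172 with vehicle. Fcer1g, the signalling chain of Fc receptors in myeloid cells, held 50 tags with TSA and 247 with vehicle, but none of these peaks lies in the gene, and the TSA peak also lies in the windows of Nr1i3, Apoa2 and Tomm40l. The window of 4930444P10Rik rested on 27.02 tags with TSA and 131 with vehicle, shares of 1 peak in each library that crossed its border. Only with vehicle, Fam110a had 241 tags in 3 peaks, the mediator subunit gene Med12l 218 tags, Trim69 175 tags, the fatty acid carrier gene Fabp5 167 tags and AA986860 154 tags.

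Higher windows were smaller. Besides Il12a, Sema6c and Larp1b, which rest on the regions given above, Nrsn2, a neuronal vesicle protein, held 164 tags with TSA and 48 with vehicle (1.90, error 0.24). Eya1, a transcriptional co-activator and phosphatase of muscle and kidney development, held 124 tags with TSA and 56 with vehicle (1.28, error 0.23). Fzd5, a Wnt receptor, held 177 tags with TSA and 88 with vehicle (1.14, error 0.19), and Lpgat1, a phospholipid acyltransferase, 290 with TSA and 150 with vehicle (1.08, error 0.15). Garnl3 held 86 tags with TSA and 40 with vehicle, the mitochondrial calcium-binding protein gene Efhd1 141 and 70, and the methyltransferase gene Smyd3 80 and 41, in the same order. Only with TSA, a peak of 107 tags lay in the windows of Tcp11l1 and Pin1rt1, and the part of it inside the window of Depdc7 made up that gene's 103 tags.

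The members of the gene lists are described relative to the median region, and scaling by all tags in peaks instead would add 0.14 to every centred ratio, enough to turn list medians between -0.14 and 0. FAP identity genes lay mostly below the median, though none passed 2-fold. Their median centred ratio was -0.39 over 8 measured genes, with 1 above 0 and 7 below, and peaks in their windows covered 57.2 kb with TSA and 82.9 kb with vehicle. Prrx1, a homeobox factor of limb mesenchyme, held 1845 tags with TSA and 3688 with vehicle (-0.87, error 0.04). Dpp4, a surface peptidase of early mesenchymal progenitors, held 257 tags with TSA and 437 with vehicle (-0.64, error 0.11). Dpt, the matrix protein dermatopontin, held 1187 and 1724 tags (-0.41), Tnfaip6, a hyaluronan-binding protein, 481 and 696 tags (-0.40), and the progenitor antigen gene Cd34 2835 and 4055 tags (-0.39), each with TSA first. Tbx15, a limb transcription factor (3472 tags with TSA, 4051 with vehicle), and Gsn, the gene of gelsolin, which cuts actin filaments (1631 with TSA, 1844 with vehicle), were at -0.09 and -0.05. The basic helix-loop-helix factor gene Twist2 was level before centring, with 349 tags with TSA and 350 with vehicle (0.13, error 0.11).

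Collagen and matrix glycoprotein genes had a median of -0.25 over 19 measured members, with 6 above 0 and 13 below. Of the 19, 2 were past 2-fold lower, Hmcn1 and Col5a2, and none higher, against 1.85% of all windows. Among the members with most tags, the laminin chain gene Lamc1 held 5398 tags with TSA and 7705 with vehicle (-0.38), Col5a1 3929 with TSA and 4904 with vehicle (-0.19), the fibrillin gene Fbn1 2671 with TSA and 5717 with vehicle (-0.97), and the type III collagen gene Col3a1 1930 with TSA and 3917 with vehicle (-0.89). The basement membrane collagen genes were above 0 within the 2-fold bound, Col4a3 with 572 tags with TSA and 474 with vehicle (0.40) and Col4a4 with 225 and 162 (0.60). The members thus ranged from -2.38 to 0.60. Matrix enzymes and inhibitors, by contrast, centred on 0.02 over 13 genes, from Pappa2 at -0.89 to Sulf2 at 0.59, with none past 2-fold. Adamtsl4 and Adamts4, with most tags of that list, were at -0.06 and 0.02.

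Signalling lists stayed near 0 with few exceptions. Over 16 growth factor, cytokine and receptor genes the median was -0.10. Of the 16, 1 was past 2-fold higher (Il12a) and 1 lower (Ccn5), against 0.631% and 1.85% of all windows. The members with most tags were Il1r1, the interleukin 1 receptor (1536 tags with TSA, 2662 with vehicle, -0.66), Hdgf (1911 with TSA, 2090 with vehicle, 0.00), Csf1 (1532 with TSA, 1786 with vehicle, -0.09) and Fgf7 (1131 with TSA, 1747 with vehicle, -0.50). TGF-beta and BMP genes had a median of 0.05 over 9 members and none past 2-fold, with Id1 at 0.08, Bmpr2 at -0.09, Tgfb2 at -0.17 and Acvr2a at 0.05. Wnt, Notch and Hedgehog genes had a median of 0.11 over 10 members, with Notch1 at 0.02, Notch2 at -0.25, Jag1 at -0.07 and Fzd7 at 0.00. Of the 10, 1 was past 2-fold higher, Fzd5, against 0.631% of all windows. The Hedgehog factor gene Gli2 held 769 tags with TSA and 612 with vehicle (0.46). Mesenchymal and signal-dependent transcription factors had a median of 0.06 over 25 members, none past 2-fold. Mef2d (0.16), Klf7 (-0.19), Zeb2 (-0.41) and Mecom (-0.31) held most tags among them.

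Adipogenesis and lipid genes had a median of -0.07 over 13 members. Of the 13, 1 was past 2-fold lower, against 1.85% of all windows: Ptgis, prostacyclin synthase, with 114 tags with TSA and 276 with vehicle (-1.15). The adipocyte carrier gene Fabp4, with 1493 tags with TSA and 1713 with vehicle, was at -0.07. Lpin3, Adipor1 and Irs1 were at 0.00, 0.04 and -0.14. Genes of histone acetylation and its readers had a median of 0.02 over 16 members, none past 2-fold, with Ncoa3 at -0.32, Phf20 at -0.09, Ncoa6 at 0.00 and Ing5 at 0.21. The deacetylase gene Hdac4 held 736 tags with TSA and 734 with vehicle. For p53, apoptosis and senescence the median was -0.01 over 14 members (Lmna 0.03, Cflar -0.30, Bcl2l1 -0.09, Casp8 -0.24), and for the cell cycle 0.01 over 15 (Cks1b 0.01, Cdc25b -0.04, Dtl -0.07, Pcna -0.02), with none past 2-fold in either list.

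Endothelial genes had a median of -0.09 over 12 members, with 3 above 0 and 9 below, and with Egfl7 holding 4085 tags with TSA and 3805 with vehicle (0.23) and Eng 3556 with TSA and 4045 with vehicle (-0.06). Sox18 was at 0.16 and Mecom, which is also in the transcription factor list, at -0.31. Macrophage and lymphocyte genes had a median of -0.15 over 14 members, with 3 above 0 and 11 below (Sirpa -0.23, Cd247 0.30, Ptpn22 -0.16, Cd2 -0.25). Of these, 1 was past 2-fold lower, against 1.85% of all windows: Fcer1g, none of whose peaks lies in the gene and which stood at 0.014 with flanks of 50000 bp. Muscle fibre and stem cell genes had a median of -0.14 over 7 members, with 3 above 0 and 4 below (Casq1 0.05, Chrng -0.14, Tnnc2 0.00, Tmod4 0.04). Genes listed for pericytes, smooth muscle, tendon and Schwann cells had a median of 0.15 over 4 members, with 3 above 0 and 1 below. They include Rgs5, Lmod1 and Mylk2, a myosin light chain kinase gene of skeletal muscle, so that list is not specific to its cells. Mylk2 alone held 1139 of the list's 1892 tags with TSA and 1110 of its 1896 with vehicle. Summed tags of the endothelial list were 20937 with TSA and 23261 with vehicle, and those of the macrophage and lymphocyte list 6254 with TSA and 7261 with vehicle. The part of cell composition in the FAP and matrix values was not tested. Ribosome, proteasome and housekeeping genes had a median of 0.02 over 37 members, with none past 2-fold. Of the 37, 36 were covered over a shorter length with TSA, 92.7 kb against 114 kb with vehicle in sum. This was not particular to them, since in every list more members with a peak were shorter than longer with TSA. The counts ran from 6 of 11 Wnt, Notch and Hedgehog genes to 8 of 8 muscle fibre and stem cell genes. The share over all gene windows was not counted.

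**Figure D5:**
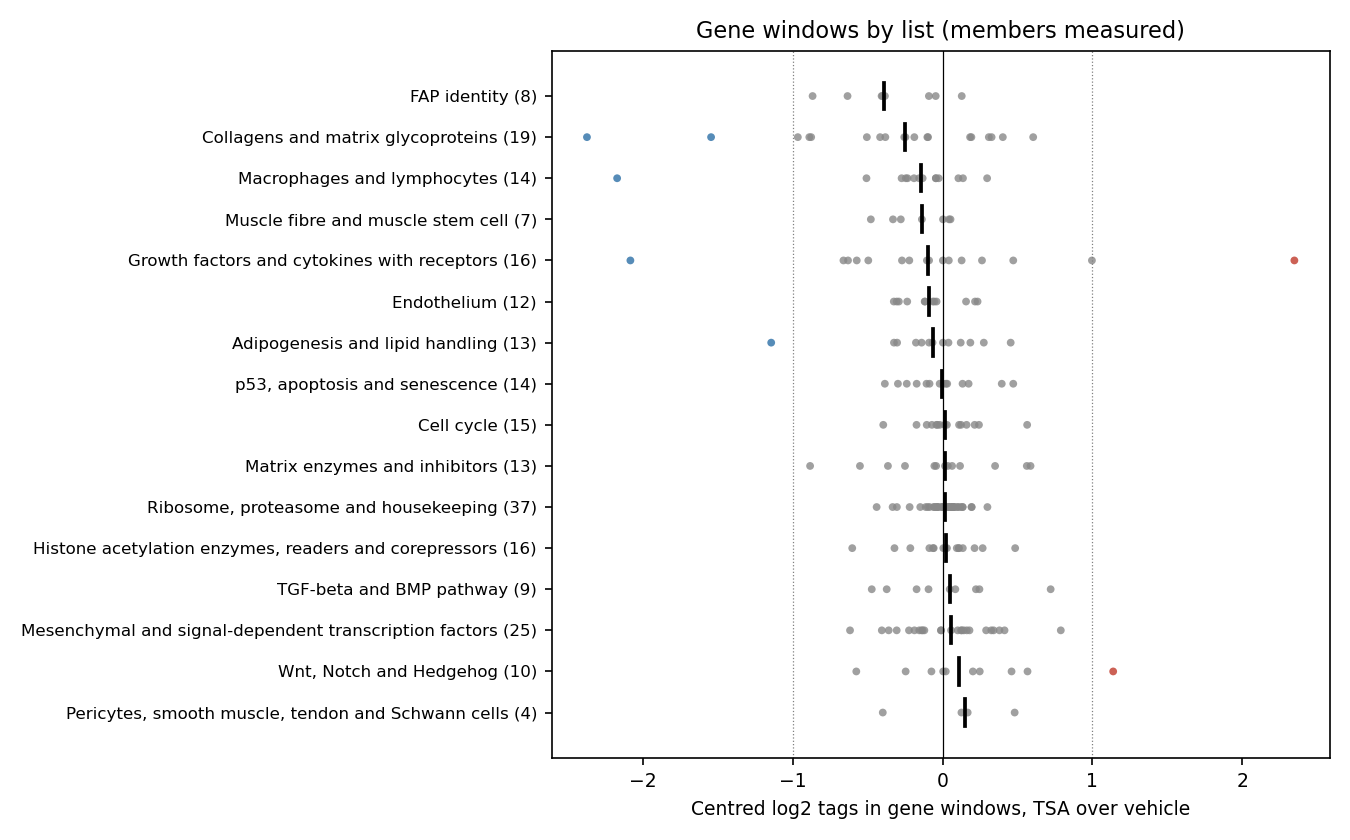
Centred log2 ratio of tags, TSA over vehicle, in gene windows by list. Each point is 1 gene, black bars are medians, numbers in parentheses count the measured members, and dotted lines mark 2-fold. FAP identity (-0.39) and collagens and matrix glycoproteins (-0.25) have the lowest medians, and points past 2-fold are blue (lower) or red (higher).

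MicroRNA loci, too, lay near the median on the whole. Of 161 hairpins in the stretch, 63 had a peak within 10 kb and 57 had 100 or more summed tags with tags in both libraries, with a median centred ratio of 0.08. Mir30a, whose 5p arm is a broadly expressed microRNA, held 66 tags with TSA and 179 with vehicle (-1.31, error 0.21), and Mir669n 25.04 and 74.99 tags (-1.45, error 0.33), so that 2 of 57 were past 2-fold lower, against 1.85% of gene windows, and none higher. The Mir669n values are shares of peaks that crossed the border of its window, and they barely reach the minimum of 100 summed tags. Mir199a-2 and Mir214, encoded together in the Dnm3 opposite strand transcript of mesenchymal cells, held 1394 and 1268 tags with TSA against 2293 and 2027 with vehicle (-0.59 and -0.55). Their windows overlap, so these are not separate observations. Mir126a, which sits inside the endothelial gene Egfl7, held 2084 tags with TSA and 1764 with vehicle (0.37, error 0.05).

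Libraries that the choice of regions did not use were set beside the same places. Of TSA-only regions, 56.0% (50.8 to 61.1) carried a peak in the H3K27ac library of old mdx mice (12 months) given TSA and 16.1% (12.5 to 20.2) in that of old mice given vehicle. For vehicle-only regions the shares were 38.1% (36.2 to 40.01) with TSA and 18.7% (17.2 to 20.3) with vehicle in old mice, and for shared regions 92.5% with TSA and 78.1% with vehicle. The old TSA library had more peaks in the stretch than the old vehicle library, 7571 against 5727, so each share also follows the length of its list. Acetylation of lysines 9 and 14 (H3K9/14ac) in young mice, as labelled, marked 27.9% of TSA-only regions with TSA and 15.5% with vehicle. It marked 7.58% of vehicle-only regions with TSA and 6.37% with vehicle, and 56.6% of shared regions with TSA and 50.4% with vehicle. The H3K9/14ac vehicle list reaches only position 167064301 of chromosome 2, so its shares are over fewer regions.

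In old mice the median log2 ratio removed by centring was 0.47. Prg4 held 697 tags with TSA and 534 with vehicle in old mice, which is -0.08 after centring (error 0.08), beside -3.46 in young mice. Aff3 held 996 tags with TSA and 875 with vehicle in old mice, -0.28 after centring (error 0.07), beside -2.14 in young mice. Il12a held 343 tags with TSA and 96 with vehicle in old mice (1.37 after centring, error 0.17), and Sema6c 226 with TSA and 86 with vehicle (0.93, error 0.18), so that both were above the median at each age. Hmcn1 held 304 tags with TSA and 71.3 with vehicle in old mice (1.63, error 0.19), the opposite sign to young mice. Nceh1 (1.39), Fbn1 (0.49), Traf1 (0.48), Ccn5 (0.45), Col3a1 (0.31) and Prrx1 (0.26) in old mice also had the opposite sign. Below 0 at each age were Bend6 (-0.79 in old mice), Cd34 (-0.30), Mgst2 (-0.23), Fcer1g (-0.14), Col5a2 (-0.02) and Lamc1 (-0.02). Nrsn2, Eya1, Efhd1, Fzd5, Lpgat1 and Egfl7 were above 0 at each age. The differences between the ages were not tested. Over the 178 regions lower with TSA in young mice, 95 had peaks in both old libraries, and their median centred ratio in old mice was -0.08, with 45 above 0 and 50 below. Over the 38 higher regions, 19 had peaks in both old libraries, with a median of 0.13, 13 above 0 and 6 below.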

How the data were processed

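ChIP-seq peak lists of 2 libraries were compared. The submitters' processing notes name Bowtie 0.12.7, HTSeq 0.6.1p1, TopHat2 2.0.9, MACS2, HOMER, DESeq2 and build GRCm38, without roles. Per the file headers, the authors made each list with HOMER's differential peak program, setting a library against itself, so the deposited tag count per peak is a whole-number count, not normalized and not pooled. The fold ratio and p-value that the authors deposited carry no information for that reason and were not used, and the deposited peak score is 0 throughout. Each list breaks off inside its last line, so the stretch covered by both lists was analysed. Inputs were not used.

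Peaks overlapping by 1 bp or touching were merged. Log2 tag ratios were centred on the median of shared regions, with counting errors, and a change needed 2-fold and a 95% interval off 0. Gene windows took 10000 bp either side and 100 summed tags. Genes and starts came from RefSeq tables of GRCm38.p6, with 3188 of 3788 genes having a listed start, and 588 of 596 listed symbols matched. Members and lists were chosen with earlier results of these data known. Named were the 10 highest and 10 lowest changed regions and windows, the 10 regions of each library alone with most tags, the 5 longest and 5 strongest regions, every FAP identity gene and, per list, the 4 members with most tags. A few members that this rule names are not reported here. Other named members, the microRNAs and the printed promoters were picked after their values were seen. Intervals cover counting error only. Python 3.11.15, numpy 2.4.6, pandas 2.3.3, scipy 1.17.1 and matplotlib 3.10.9 were used.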

Additional observations from a re-analysis of the deposited data

Results flagged for a closer look

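The H3K27ac covered length differed between TSA and vehicle in opposite directions at the 2 ages: TSA minus vehicle was 2.08 Mb in old mice (6.91 Mb with TSA, 4.83 Mb with vehicle) and -2.06 Mb in young mice (5.99 Mb with TSA, 8.05 Mb with vehicle). It is listed because the 2 ages moved opposite ways, with 1 library a group. The difference between the ages was not tested.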

How the results depend on the processing

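No paired analysis was possible because each group has 1 library. For the same reason no replicate could be left out. Shares of peaks with a partner moved with the choice of peaks, and in each case run fewer vehicle than TSA peaks had one. With the upper 50% of each list by tags they were 97.3% of TSA peaks and 73.1% of vehicle peaks, with lists of equal length by tags 87.5% and 81.1%, and with peaks of 500 bp or wider 94.6% and 72.0% (72.03). Asking for an overlap of 50% of the shorter peak gave 66.2% of vehicle peaks. On chromosomes 1 and 2 alone 65.1% and 69.5% of vehicle peaks had a partner, and on chromosome 3 alone 94.8% of TSA peaks. Among vehicle peaks with 100 or more tags, an alternative added after seeing the data, it was 92.0% (91.98). The share of covered vehicle length without a TSA peak stayed between 26.9% and 32.7% over its 4 alternatives.

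Tags per bp ended the calls of shared regions: 0% were lower and 0.0202% higher. It also turned the sign of 16 of the 20 named regions, to -0.54 (Il12a), -0.36 (Sema6c), -0.13 (near Srp9), -0.29 (Tspan18), -0.23 (Fndc11), -0.085 (near Rfx8), -0.34 (Larp1b), 0.30 (Lhfp), 0.33 (near Sucnr1), 0.014 (Fndc3b), 0.43 (Elf2), 0.52 (Pnkd), 0.26 (Wwtr1), 0.31 (near Acvr2a), and 1.19 and 0.52 (Plxdc2). The 4 others fell below 2-fold. Scaling by all tags in peaks, which adds 0.14 to each centred ratio, made 1.27% of shared regions higher and 2.41% lower, and centring on start-site regions 0.546% and 4.41% in the same order. Every other alternative run on the named regions left their calls unchanged.

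Gene windows depended on the flank: 0.993% were higher with flanks of 2000 bp and 0.146% with flanks of 50000 bp. With 2000 bp, 14 named windows had tags in both libraries and all 14 kept their call. The others, Nrsn2, Garnl3, Prg4, Fcer1g, Traf1 and 4930444P10Rik, had no ratio there. The wider flank kept the call of 6 of the 20 named windows, put 10 below 2-fold and turned 4, Efhd1 to -0.10, Smyd3 to -0.0079, Fcer1g to 0.014 and 4930444P10Rik to 0.19. Counting all tags of touching peaks turned 4930444P10Rik to 0.13 and no other named window. The share of start sites was 19.8% of TSA-only, 10.7% of vehicle-only and 39.7% of shared regions with 2500 bp either side, and 41.25%, 13.2% and 47.3% in the upper 50% by tags. Using either gene end in place of listed starts, added after seeing the data, gave 7.89% of vehicle-only and 40.5% of shared regions. The cause of these shifts was not tested. Regions with few tags limit all shares of regions found in 1 library alone.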

Other observations

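Genes differed in how many regions of 1 library alone they held, and those below were picked by these counts. Over the whole stretch 373 regions were TSA-only, 2572 vehicle-only and 4942 shared. TSA-only regions numbered at most 4 in a gene, in Frmd4a and in Plcb4, a phospholipase C gene. These 2 genes held 11 and 23 vehicle-only regions and 16 and 10 shared ones. Mvb12b, an ESCRT subunit gene, held 3 TSA-only regions, 2 vehicle-only regions and no shared one. Vehicle-only regions were most numerous in Fbn1, with 1 TSA-only, 26 vehicle-only and 9 shared regions, followed by Plcb4 and by Fmnl2, a formin gene, with 1 TSA-only, 21 vehicle-only and 12 shared regions. Celf2 (856.6 kb long) held 3 TSA-only, 20 vehicle-only and 23 shared regions. In the same order Fndc3b held 0, 19 and 22, and Mbnl1, a splicing regulator of muscle, 0, 17 and 12. In shorter genes, Col5a2 (129 kb) held 0 TSA-only, 16 vehicle-only and 2 shared regions, and Col3a1 (38.2 kb) 2 TSA-only, 15 vehicle-only and 8 shared regions.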
